A study of Mus musculus with 20 samples.

Results

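The genes of fatty acid oxidation and of the peroxisome were followed as a set of 37, found by symbol among the 24762 genes of the joined count tables. By the place where their products work they were parted into 18 mitochondrial genes, 13 peroxisomal genes and 6 others, namely the acyl-CoA synthetase Acsl1, the carnitine acetyltransferase Crat, the cytosolic thioesterase Acot1 and the regulators Ppara, Ppargc1a and Pdk4. All 37 were present in each count table and all passed the filter on low counts, which left 15549 genes to test. Kidney RNA was measured by strand-specific poly(A) sequencing in male mice of the C57BL/6J strain, all orchidectomised, with 5 libraries in each of 4 groups. These were ARLmon/Y mice given testosterone, ARLmon/Y mice given vehicle, wild type mice given testosterone and wild type mice given vehicle, and the replacement lasted 4 days. Age and dose are not given in the sources used here. ARLmon is a knock-in allele of the androgen receptor with a substitution in the ligand-binding domain that disturbs dimerisation of the receptor, and it is carried by every cell of the mouse and not by the kidney tubule alone.

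Long fatty acids are activated to acyl-CoA, pass into mitochondria as carnitine esters, and are shortened there by cycles of dehydrogenation, hydration, a second dehydrogenation and thiolysis. Peroxisomes run a related cycle on very long and branched chains and on bile acid precursors, starting with oxidases that make hydrogen peroxide, and they hand the shortened chains on as carnitine esters or as free acids. The proximal tubule of the kidney is rich in both organelles and relies on fatty acids as fuel, and the nuclear receptor PPARα is a known activator of many of these genes.

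Between 8342000 and 38101526 reads per library were assigned to genes, and the members held from 88 reads (Acot3) to 123833 reads (Slc27a2) in a library. The labels do not say that each library came from a separate animal, and every p therefore measures the spread between these samples, which may be technical. Each column carries a library code (GC078602 to GC078621), which the header of the deposited log2 values links to a group but to no replicate number. A substitution in the receptor cannot be checked in counts per gene.

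Cell type markers moved with the groups. Summed over 5 markers of the straight proximal tubule (3 of 5 rose with testosterone in wild type), the level was 836 to 1760 CPM (read counts scaled to library size with TMM factors) in ARLmon testosterone, 642 to 1210 in ARLmon vehicle, 4630 to 5890 in wild type testosterone and 1340 to 2210 in wild type vehicle libraries. All 5 podocyte markers fell with testosterone in wild type, where their sum was 292 to 363 CPM, against 380 to 573 CPM with vehicle. In ARLmon libraries that sum was 507 to 623 CPM with testosterone and 540 to 665 CPM with vehicle. Adipocyte RNA was present in unequal amounts: the sum of 7 markers was 206 to 419 CPM in ARLmon testosterone, 132 to 555 in ARLmon vehicle, 94.0 to 343 in wild type testosterone and 85.4 to 435 in wild type vehicle libraries, and the brown fat gene Ucp1 reached 140 CPM. None of the 7 was called in either testosterone comparison. Within groups, 30.4% of the variance lay along 1 axis on which GC078604 (wild type vehicle) and GC078618 (ARLmon vehicle) were farthest out, and Ppara was lowest of its group in both. In whole kidney RNA, fewer cells of a type and less RNA per cell cannot be told apart, and the part of these shifts in the results below was not tested.

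Per kilobase of exon, averaged over the 20 libraries, the peroxisomal and microsomal acyl-CoA synthetase Slc27a2 led with 898 CPM per kb. It was followed by Etfb (443), Acaa2 (221), Etfa (213), Ehhadh (212), Acadl (181), Acadm (178) and Acadvl (160). The thioesterases Acot1 (11.7), Acot3 (10.9), Acot2 (8.75) and Acot4 (7.75) and the receptor gene Ppara (8.43) stood at the low end. Summed level of the peroxisomal members was 3976.9 to 5356.1 CPM in ARLmon testosterone libraries, 3751.7 to 5035.4 in ARLmon vehicle, 7433.3 to 9681 in wild type testosterone and 5133 to 6067.7 in wild type vehicle libraries. The wild type testosterone libraries thus lay above the libraries of the other groups. Without the most abundant member, Slc27a2, the sum was 1681.2 to 2128.8, 1714.7 to 1982.4, 2621.5 to 3840.1 and 2086.7 to 2957.7 CPM in the same order of groups, and the wild type groups overlapped. The mitochondrial sum was 4737 to 5262.2, 4703.2 to 6262, 5493.9 to 6257.1 and 4830.3 to 5843.7 CPM in that order. The ARLmon testosterone libraries lay below the wild type testosterone libraries, and the other pairs of groups overlapped.

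**Figure D1:**
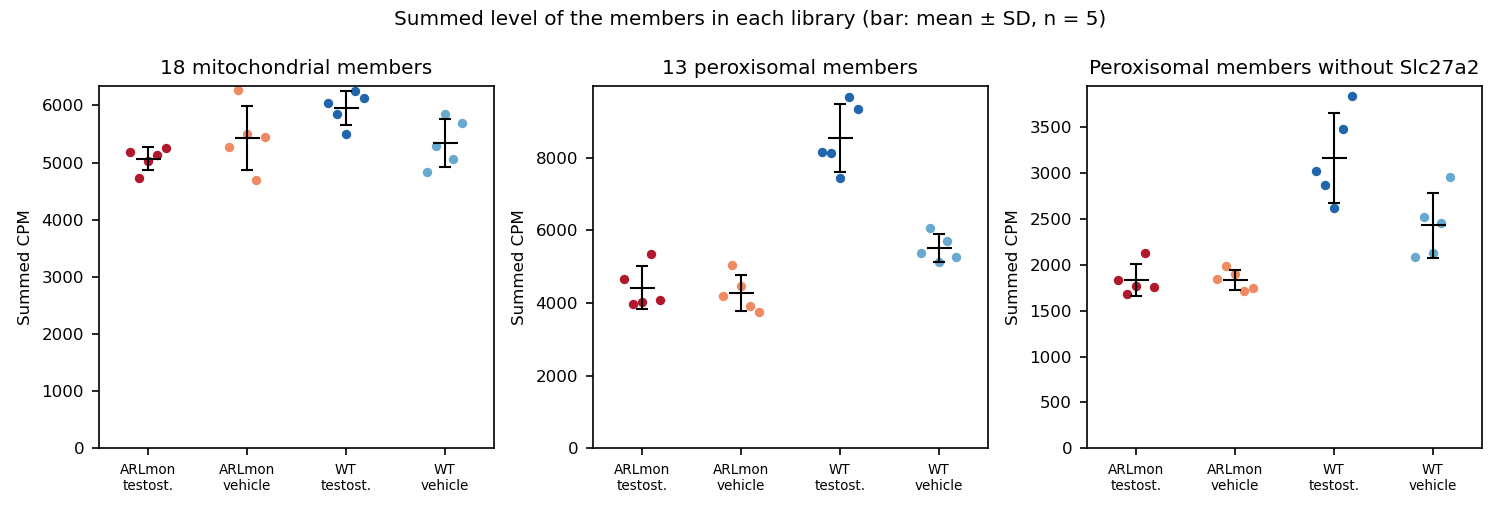
Summed level in CPM (vertical axis) of the 18 mitochondrial members, the 13 peroxisomal members and the peroxisomal members without Slc27a2, for each of the 20 libraries by group (points), with mean ± SD, n = 5. The 5 wild type testosterone libraries lie at 7433.3 to 9681 CPM for the peroxisomal members, above every other library. For the mitochondrial members the ARLmon testosterone libraries lie below the wild type testosterone libraries, and the other pairs of groups overlap.

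In wild type kidneys testosterone moved individual steps of both pathways in opposite directions. With edgeR's quasi-likelihood test and Benjamini-Hochberg adjustment over all genes, 19 of 37 members passed an adjusted p of 0.05, 11 higher and 8 lower, where 15.7% of all tested genes passed, 9.36% higher and 6.36% lower. The libraries of both groups did not overlap for 10 members that were higher and 7 that were lower with testosterone, where 12.6% of all genes were free of overlap, 8.34% higher and 4.21% lower. Among the mitochondrial members 5 rose and 4 fell, among the peroxisomal members 6 rose and 2 fell, and of the others 2 fell. The median log2 change over the 37 was 0.03, beside -0.03 over all tested genes. The split depends on the scaling: without TMM factors, when counts were scaled by library size alone, the median of all genes moved to -0.18 and 6 members were higher and 10 lower, against 897 higher and 2687 lower among all genes. With the normalisation used here (TMM factors) 1455 genes were higher and 989 lower. The 6 members higher under both were Acadm, Acads, Slc27a2, Acox3, Crot and Pex11a. Without GC078606, the wild type vehicle library with the most adipocyte RNA and the fewest reads, 15 members were called.

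The carnitine shuttle changed at its entry. Cpt1a, the outer membrane acyltransferase that commits long chains to mitochondria, averaged 525 ± 26.1 CPM with testosterone and 417 ± 32.6 CPM with vehicle (SD, n = 5 each), a rise of 0.33 ± 0.10 on the log2 scale (SE; adjusted p = 0.0273 in edgeR). This call was lost under library size scaling (0.18, adjusted p = 0.183) and without GC078604 (0.31, adjusted p = 0.0544), GC078606 (0.30, adjusted p = 0.0684), GC078609 (0.33, adjusted p = 0.0505) or GC078610 (0.31, adjusted p = 0.0748). The carnitine carrier Slc25a20 and the inner membrane enzyme Cpt2 did not pass, with changes of -0.05 and -0.03.

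Of the acyl-CoA dehydrogenases, which open each mitochondrial cycle at their own range of chain lengths, 3 rose and 1 did not pass. Acadm, for medium chains, held 889, 948, 808, 1178 and 1171.9 CPM in the wild type testosterone libraries, against 615, 552, 506, 704 and 574 CPM in the vehicle libraries. The 2 groups did not overlap, and the log2 change was 0.76 ± 0.16 (adjusted p = 0.00149 in edgeR). Acads, for short chains, held 340, 346, 336, 348 and 326 CPM with testosterone, against 200, 238, 284, 236 and 245 CPM with vehicle. Its testosterone libraries lay within a narrow band above all vehicle libraries, with a change of 0.49 ± 0.11 (adjusted p = 0.00411 in edgeR). Acadl, for long chains, held 466, 448, 401, 508 and 520 CPM with testosterone, against 346, 359, 339, 358 and 389 CPM with vehicle. The change was 0.39 ± 0.09 (adjusted p = 0.00516 in edgeR), and it fell to 0.23 (adjusted p = 0.0635) under library size scaling. The dehydrogenase for very long chains, Acadvl, gave -0.10 and did not pass.

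The electron transfer flavoprotein takes the electrons of these dehydrogenases. Its α subunit gene Etfa held 488, 431, 437, 488 and 453 CPM with testosterone, against 399, 394, 403, 372 and 352 CPM with vehicle, without overlap. The rise was 0.26 ± 0.07 (adjusted p = 0.0131 in edgeR), and 0.11 (adjusted p = 0.228) under library size scaling. Etfb (-0.20) and the ubiquinone oxidoreductase Etfdh (0.25) did not pass, and 43.8% of the 50-base stretches of Etfb also lie in the overlapping gene model Gm45233, which leaves its count uncertain.

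Of the 5 genes of the later mitochondrial steps, 3 fell (Hadha, Hadhb and Acaa2) and Echs1 (0.12) and Hadh (0.23) did not pass. Hadha and Hadhb encode the α and β subunits of the trifunctional protein, which carries out hydration, the second dehydrogenation and thiolysis on long chains. Both fell: Hadha averaged 215 ± 13.9 CPM with testosterone and 287 ± 38.1 CPM with vehicle, and Hadhb 82.6 ± 6.00 CPM with testosterone and 104 ± 12.7 CPM with vehicle. The changes were -0.41 ± 0.10 for Hadha (adjusted p = 0.00582) and -0.34 ± 0.10 for Hadhb (adjusted p = 0.0236 in edgeR). Hadhb was no longer called without the vehicle library GC078606 (-0.26, adjusted p = 0.0795), without GC078607 (-0.33, adjusted p = 0.0503) or without GC078609 (-0.31, adjusted p = 0.0641), and 18.1% of its 50-base stretches occur in the gene model Gm13910 as well. The 2 genes lie head to head on chromosome 5. In RefSeq (GRCm38.p6) Hadha starts at position 30154980 on the minus strand and Hadhb at 30155253 on the plus strand, with 272 bases between them. The promoter window of Hadhb, from 250 bases before its start to 50 bases from it (chr5:30155003-30155302, plus strand), is shown because the 2 subunits moved together. Its capitals mark the 228 bases that lie in the window of Hadha too:
Hadhb: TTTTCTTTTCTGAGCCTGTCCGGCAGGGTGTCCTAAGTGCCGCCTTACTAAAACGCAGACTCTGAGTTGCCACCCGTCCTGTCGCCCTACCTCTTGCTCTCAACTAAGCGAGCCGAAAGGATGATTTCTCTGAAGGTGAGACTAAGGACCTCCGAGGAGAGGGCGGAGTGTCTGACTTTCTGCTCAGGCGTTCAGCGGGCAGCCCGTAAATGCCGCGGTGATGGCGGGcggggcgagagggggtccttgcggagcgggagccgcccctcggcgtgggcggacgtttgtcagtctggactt

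Acaa2, the mitochondrial thiolase for medium and long chains, showed the steepest fall of the mitochondrial members. It held 210, 171, 171, 147 and 192 CPM with testosterone, against 257, 332, 384, 323 and 381 CPM with vehicle. Every testosterone library lay below every vehicle library, and the change was -0.91 ± 0.14 (adjusted p = 4.97e-05 in edgeR). The thioesterase Acot2, which frees fatty acids from CoA inside mitochondria, fell by 0.72 ± 0.16 (adjusted p = 0.00314 in edgeR) to 14 ± 2.91 CPM with testosterone, against 23.3 ± 4.38 CPM with vehicle. It shares 24.5% of its 50-base stretches with Acot1. The hydratase Echs1, the short-chain dehydrogenase Hadh, and the enzymes for unsaturated chains Eci1 (-0.35) and Decr1 (0.19) did not pass.

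**Figure D2:**
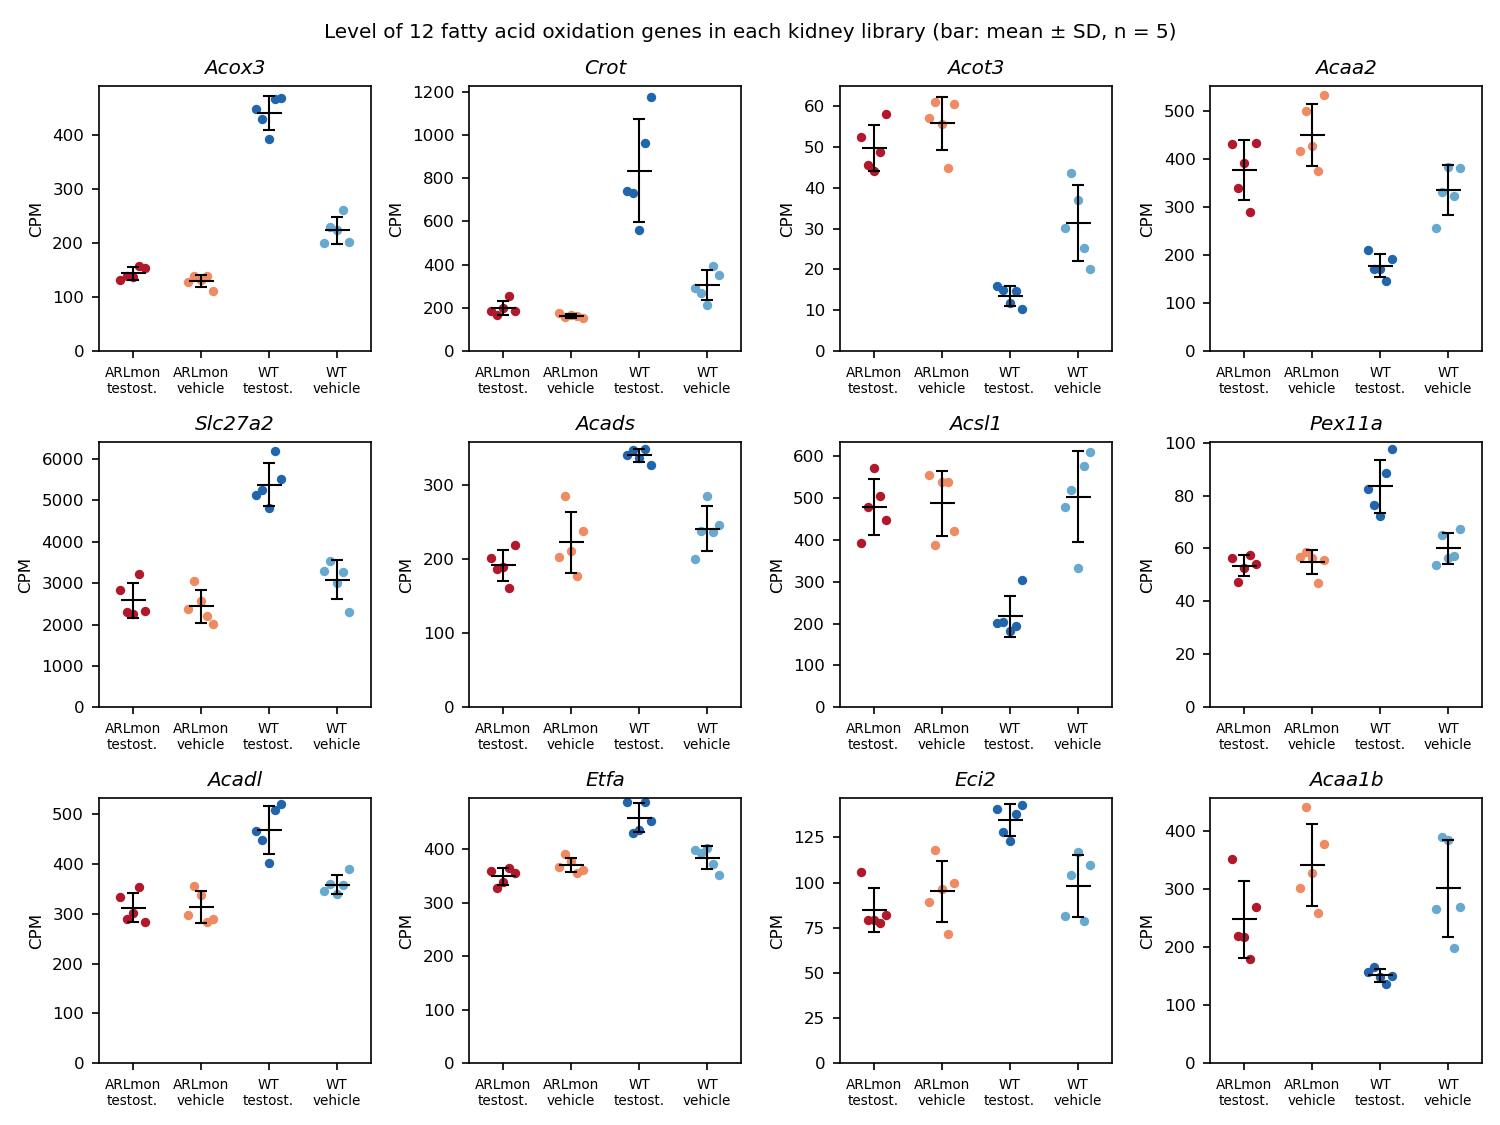
Level in CPM (vertical axis) of the 12 members with the smallest p over the 6 comparisons, in each of the 20 libraries by group (points), with mean ± SD, n = 5. Wild type testosterone libraries stand apart in most panels: Acox3 holds 393 to 469 CPM there, while Acot3 holds 10.4 to 16 CPM.

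Of the 13 peroxisomal members 6 rose, among them genes of activation, oxidation and carnitine export. Slc27a2 activates very long chains and bile acids. It held 5128.8, 5258.1, 4811.8, 6202.1 and 5506.6 CPM in the wild type testosterone libraries, against 3296.5, 3542.7, 3009.1, 3262.3 and 2310.1 CPM in the vehicle libraries. The groups did not overlap, and the gene was 1.74-fold higher (log2 change 0.80 ± 0.14, adjusted p = 0.000226 in edgeR). The branched-chain acyl-CoA oxidases make the first double bond. Acox3 held 449, 430, 393, 466 and 469 CPM with testosterone, against 200, 229, 224, 262 and 203 CPM with vehicle. All testosterone libraries lay far above the vehicle libraries, with a change of 0.98 ± 0.09 (1.97-fold, adjusted p = 7.81e-08 in edgeR). Acox2, which also acts on bile acid intermediates, rose by 0.52 ± 0.16 (adjusted p = 0.0313) to 164 ± 27.5 CPM with testosterone, against 115 ± 20.4 CPM with vehicle, and its groups overlapped. The call ended without GC078602, GC078604, GC078606, GC078610 or GC078611, and the lowest of these changes was 0.43 (adjusted p = 0.0934), without GC078611. Under library size scaling it was 0.37 (adjusted p = 0.0991).

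Crot, the octanoyltransferase that turns chains shortened in peroxisomes into carnitine esters for export, had the largest rise of all members. It held 740, 733, 560, 964 and 1174.6 CPM with testosterone, against 293, 271, 215, 393 and 353 CPM with vehicle. The groups did not overlap, and the gene was 2.74-fold higher (log2 change 1.45 ± 0.17, adjusted p = 3.3e-06 in edgeR). Eci2, an isomerase for unsaturated chains, held 141, 128, 123, 138 and 143 CPM with testosterone, against 81.5, 104, 117, 78.8 and 110 CPM with vehicle. It rose by 0.46 ± 0.13 (adjusted p = 0.018 in edgeR), without overlap, and by 0.31 (adjusted p = 0.0783) under library size scaling. Pex11a, which takes part in peroxisome division, held 82.6, 76.4, 72.4, 88.6 and 97.7 CPM with testosterone, against 53.8, 65.2, 56.4, 57.2 and 67.4 CPM with vehicle. Its rise of 0.48 ± 0.09 (adjusted p = 0.000965 in edgeR) was also without overlap. Of 5 straight proximal tubule markers, 3 rose in the same libraries (Atp11a, Slc22a30 and Slc7a13), and Slc5a1 and Slc6a18 were not called. Whether the peroxisomal rise goes with that segment was not tested.

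Acox3 and Crot stand on chromosome 5 in the mouse, Acox3 at 35583040-35615352 on the plus strand and Crot at 8966033-8997324 on the minus strand (GENCODE M21, GRCm38). Their promoter windows, from RefSeq (GRCm38.p6), are shown as those of the members that rose most, at chr5:35582784-35583083 for Acox3 and chr5:8997097-8997396 for Crot, each read along the gene's strand. By GENCODE M21 Crot starts at 8997324, inside the window shown, and some of its lower-case bases lie in that gene model. Capitals mark the first 50 transcribed bases by the RefSeq start sites:
Acox3: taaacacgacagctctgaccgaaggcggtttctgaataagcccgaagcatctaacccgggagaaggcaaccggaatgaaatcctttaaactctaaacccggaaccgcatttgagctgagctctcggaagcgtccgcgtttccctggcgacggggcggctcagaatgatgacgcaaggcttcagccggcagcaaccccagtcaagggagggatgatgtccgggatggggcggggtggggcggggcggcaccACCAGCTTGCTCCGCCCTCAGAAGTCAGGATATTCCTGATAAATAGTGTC
Crot: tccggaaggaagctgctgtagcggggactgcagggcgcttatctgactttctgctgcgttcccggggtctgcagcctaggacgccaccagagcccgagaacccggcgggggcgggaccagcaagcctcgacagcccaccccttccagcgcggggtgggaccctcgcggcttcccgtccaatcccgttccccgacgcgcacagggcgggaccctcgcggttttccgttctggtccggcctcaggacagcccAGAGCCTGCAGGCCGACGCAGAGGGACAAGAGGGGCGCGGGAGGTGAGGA

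Against these rises, a thiolase and a thioesterase of the peroxisome fell. Acaa1b, one of a pair of mouse peroxisomal thiolases, held 157, 166, 148, 136 and 151 CPM with testosterone, against 265, 390, 384, 198 and 268 CPM with vehicle. The groups did not overlap, and the change was -0.99 ± 0.19 (adjusted p = 0.000722 in edgeR). Its near copy Acaa1a gave -0.21 and did not pass, though limma on the deposited log2 values called it (-0.57, adjusted p = 0.014). As 30.5% of the 50-base stretches of Acaa1b and 12.4% of those of Acaa1a occur in the other gene, the split of reads between them is uncertain. Acot3, which releases long-chain fatty acids from CoA, held 16, 15, 11.7, 14.8 and 10.4 CPM with testosterone, against 30.2, 43.6, 37, 25.2 and 20.2 CPM with vehicle. Every testosterone library lay below every vehicle library, and the gene was 2.31-fold lower (log2 change -1.21 ± 0.17, adjusted p = 2.87e-05 in edgeR). Acot4, which acts on dicarboxylic CoA esters, gave 0.03. The bifunctional enzymes Ehhadh (0.11) and Hsd17b4 (0.02) and the reductase Decr2 (-0.09) did not pass.

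Acot1, Acot2, Acot3 and Acot4 lie within a cluster on chromosome 12, and Acot3 spans 84052144-84060402 on the plus strand, inside a gene model (Gm49366) that also covers Acot4 and shares 11% of the 50-base stretches of Acot3. The Acot3 window (chr12:84051894-84052193, RefSeq, GRCm38.p6) is shown because of its difference between the genotypes under testosterone. There this gene differed most in the direction opposite to Crot and Acox3, while in the wild type response Acsl1 fell as far (both -1.21). Its capitals mark a match to the nuclear receptor motif AGGTCA, read on the opposite strand, at position 19 from the start site:
Acot3: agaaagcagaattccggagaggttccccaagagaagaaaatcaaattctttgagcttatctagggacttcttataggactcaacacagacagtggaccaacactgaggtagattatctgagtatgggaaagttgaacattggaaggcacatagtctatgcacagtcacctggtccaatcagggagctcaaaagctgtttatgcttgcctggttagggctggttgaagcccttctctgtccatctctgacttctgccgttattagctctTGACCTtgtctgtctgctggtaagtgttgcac

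The following motifs were searched on both strands in the 300-base windows. RefSeq windows were found for 33 of 37 members (36 windows), without Decr1, Acaa2, Crat and Hsd17b4. The palindromic androgen response element, an inverted repeat of GNACA with a spacer of 3 bases, was in 0 of 36 member windows and in 0.475% of all 32817 windows. The direct repeat bound by PPARα with its partner, AGGNCA given again after a spacer of 1 base, was in 0 of 36 and in 0.381% of all. The single androgen receptor motif AGAACA was in 2 of 36 member windows, those of Acot1 and Hadh, and in 19% of all. AGGTCA was in 8 of 36, belonging to Acadm, Acadvl, Acot3, Acot4, Cpt1a, Echs1 and Slc27a2, and in 16.3% of all. AGGTCA can be contained in a match to the direct repeat. The Acox3, Crot and Hadhb windows held none of these motifs, which says only that these letters are not within that distance of the start.

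Of the other members, Acsl1, the long-chain acyl-CoA synthetase of the outer mitochondrial membrane and the endoplasmic reticulum, fell 2.32-fold. It held 201, 203, 183, 195 and 303 CPM with testosterone, against 478, 518, 332, 577 and 610 CPM with vehicle. Even the highest testosterone library, GC078611, stayed below the lowest vehicle library (log2 change -1.21 ± 0.16, adjusted p = 1.49e-05 in edgeR). The cytosolic thioesterase Acot1 was called at -1 ± 0.30 (adjusted p = 0.0251), with 34.2, 26.5, 30.4, 31.5 and 60.6 CPM with testosterone, against 41, 57, 44, 67.3 and 160 CPM with vehicle. The groups overlapped, and the highest value was in GC078606, with the highest adipocyte sum (435 CPM) and the fewest reads (8618311) of its group. In wild type testosterone, GC078608 had the highest adipocyte sum (343 CPM) and the lowest Acot1 level (26.5 CPM). A link between Acot1 and adipocyte RNA was not tested. Without GC078606 the change was -0.51 (adjusted p = 0.118 in edgeR). The call was also lost without GC078607, GC078608, GC078609 or GC078610. Crat, which moves acetyl groups between CoA and carnitine, averaged 192 ± 6.26 CPM with testosterone and 181 ± 30.1 CPM with vehicle and did not pass (0.08). It was not called in the other comparisons either, with changes from -0.17 to 0.05. The regulators were not called: Ppara gave 0.26 ± 0.32, its coactivator Ppargc1a -0.14 ± 0.17, and Pdk4, a kinase that restrains glucose oxidation, -0.43 ± 0.31. Ppara levels were 32.1 to 42.6 CPM with testosterone, within the range of 14.1 to 45.4 CPM with vehicle.

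**Figure D3:**
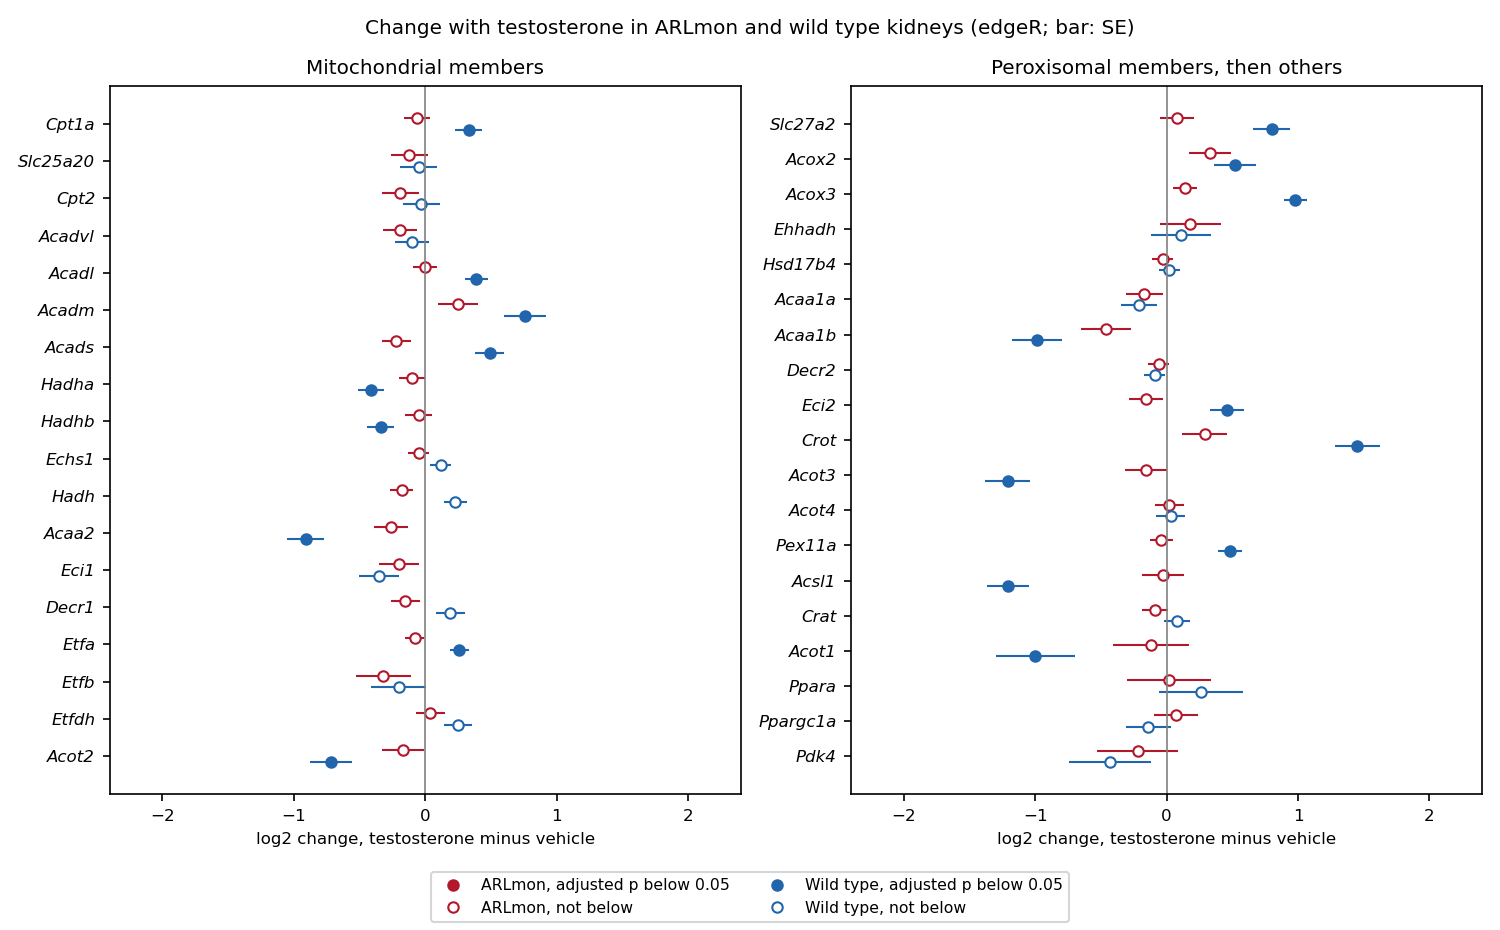
Log2 change with testosterone (horizontal axis; points, bars ± SE) of all 37 members in ARLmon (red) and wild type (blue) kidneys, filled where the adjusted p was below 0.05. Wild type changes run from -1.21 to 1.45 with 19 filled points, while ARLmon changes run from -0.46 to 0.33 with none filled.

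In ARLmon kidneys no member was called after testosterone, and none of the 15549 genes was (0% of those tested). At an unadjusted p below 0.05 edgeR gave 813 genes, of which 1 was a member. The count was 0 by DESeq2 and by limma-voom too, with 2 members each at an unadjusted p below 0.05. For 0 members, and for 0.778% of all genes (0.392% higher, 0.386% lower), the libraries of both groups did not overlap. The member changes ran from -0.46 (Acaa1b) to 0.33 (Acox2), with a median of -0.08, beside 0.01 over all genes. Acaa1b held 352, 219, 218, 180 and 269 CPM with testosterone, against 301, 441, 327, 258 and 378 CPM with vehicle, so its groups overlapped. Crot held 186, 169, 202, 256 and 185 CPM in ARLmon testosterone libraries, against 176, 157, 170, 163 and 153 CPM in ARLmon vehicle libraries, a change of 0.29 with a 95% interval from -0.07 to 0.64. For Acox3 the libraries held 131, 140, 137, 158 and 155 CPM with testosterone, against 129, 139, 132, 140 and 112 CPM with vehicle, and the interval ran from -0.04 to 0.33. Acot3 held 52.4, 45.5, 44, 48.8 and 58 CPM with testosterone, against 56.9, 60.8, 55.5, 44.7 and 60.5 CPM with vehicle, with an interval from -0.49 to 0.17. These intervals exclude the wild type changes of the same 3 genes. With the within-group axis as a covariate, 1104 genes and 2 members were called in ARLmon by edgeR, Etfb (-0.31, adjusted p = 0.0189) and Acaa1b (-0.47, adjusted p = 0.0260). That axis was computed from the within-group spread of these same libraries. Fitting it lowers the spread by construction and tends to make adjusted p too small, so these calls are no evidence of a response.

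The difference between the 2 responses was tested directly, as ARLmon response minus wild type response. It passed for 9 of 37 members, 3 positive and 6 negative, where 4.77% of all genes passed, 1.42% positive and 3.34% negative. Crot (-1.17 ± 0.24, adjusted p = 0.00516), Acox3 (-0.84 ± 0.13, adjusted p = 0.00021), Slc27a2 (-0.72 ± 0.19, adjusted p = 0.029), Acads (-0.71 ± 0.16, adjusted p = 0.00944), Pex11a (-0.52 ± 0.13, adjusted p = 0.0233) and Etfa (-0.34 ± 0.10, adjusted p = 0.0468) were negative in edgeR. Acsl1 (1.19 ± 0.23, adjusted p = 0.00255), Acot3 (1.04 ± 0.23, adjusted p = 0.00889) and Acaa2 (0.66 ± 0.19, adjusted p = 0.0482) were positive. Crot, Acox3, Acads, Acsl1 and Acot3 kept this call in all alternatives run. The calls of Acaa2 and Etfa lay close to the threshold. With 1 library left out, Acaa2 passed only where this was GC078602, GC078607, GC078615, GC078618 or GC078621, and Etfa only where it was GC078604, GC078608 or GC078615. Without GC078610 they gave 0.59 (adjusted p = 0.106) and -0.32 (adjusted p = 0.102). Slc27a2 lost its call without GC078610 (-0.66, adjusted p = 0.0681), GC078613, GC078614, GC078616, GC078618 or GC078619, and Pex11a without GC078610 (-0.50, adjusted p = 0.0521) or GC078613 (-0.48, adjusted p = 0.0542). The count was 5 without GC078610 and 5 without GC078613. Under library size scaling Slc27a2, Pex11a and Etfa were not called, Hadha was (0.49, adjusted p = 0.0381), and 4 members were positive and 3 negative. The median of all genes was then 0.20 in place of 0.02, and among all genes 715 were positive and 340 negative, in place of 221 and 520. The remaining 28 members did not pass, Eci2 (-0.62, adjusted p = 0.0532) being the nearest.

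With vehicle, when both genotypes were orchidectomised and given no testosterone, 4 of 37 members differed, all of them peroxisomal, 1 higher and 3 lower in ARLmon, where 4.37% of all genes passed, 1.99% higher and 2.38% lower. The genotypes' libraries did not overlap for 1 member that was higher and 2 that were lower, where 4.57% of all genes were free of overlap, 2.18% higher and 2.39% lower. Acox3 was lower in ARLmon, at 129, 139, 132, 140 and 112 CPM, against 200, 229, 224, 262 and 203 CPM in wild type, without overlap (log2 difference -0.78 ± 0.09, adjusted p = 7.47e-06 in edgeR). Crot was also lower, at 176, 157, 170, 163 and 153 CPM in ARLmon, against 293, 271, 215, 393 and 353 CPM in wild type, again without overlap (-0.90 ± 0.17, adjusted p = 0.00299). Acot3 was higher, at 56.9, 60.8, 55.5, 44.7 and 60.5 CPM in ARLmon, against 30.2, 43.6, 37, 25.2 and 20.2 CPM in wild type (0.83 ± 0.16, adjusted p = 0.00318 in edgeR). The lowest ARLmon library, at 44.7 CPM, lay just above the highest wild type library, at 43.6 CPM.

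Ehhadh, the bifunctional enzyme that carries hydration and dehydrogenation in the peroxisome, was the other called gene. It held 457, 413, 481, 435 and 330 CPM in ARLmon vehicle, against 576, 750, 473, 804 and 1290.2 CPM in wild type vehicle libraries. The groups overlapped, and the difference of -0.88 ± 0.23 (adjusted p = 0.0303 in edgeR) dropped to -0.62 (adjusted p = 0.0899) without GC078606. That library held 1290.2 CPM and had both the highest adipocyte sum and the fewest reads of its group. In ARLmon vehicle, GC078621 had the highest adipocyte sum (555 CPM) and the lowest Ehhadh level (330 CPM). A link between Ehhadh and adipocyte RNA was not tested. The call was also lost without GC078605, GC078617, GC078618, GC078620 or GC078621, with the highest adjusted p, 0.0929, without GC078621. Straight proximal tubule markers were lower in ARLmon in the same comparison (3 of 5), with sums of 642 to 1210 CPM in ARLmon and 1340 to 2210 CPM in wild type. Of 8 general proximal tubule markers 2 were lower too. Higher in ARLmon were 2 of 4 distal convoluted tubule markers, 2 of 9 collecting duct markers and 1 of 5 podocyte markers. Acot1 came nearest to a call among the other members (-0.95, adjusted p = 0.0728), and without GC078606 it was at -0.46. No mitochondrial member passed: Acaa2 gave 0.43 (adjusted p = 0.0764), and Cpt1a gave 0.02. The interval of the Acsl1 difference was -0.38 to 0.29, and that of the Acads difference -0.35 to 0.12. Without GC078604, 7 members and 1211 genes passed in place of 4 and 680, and without GC078605, 3 members and 413 genes.

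Under testosterone 23 of 37 members differed between the genotypes, 7 higher and 16 lower in ARLmon, where 31.1% of all genes passed, 15.6% higher and 15.5% lower. Libraries did not overlap for 7 members that were higher and 13 that were lower, where 22.5% of all genes were free of overlap, 9.44% higher and 13.1% lower. This comparison shares the wild type testosterone libraries with the response described above, so the values are given side by side and are no second line of evidence. Of the mitochondrial members 8 were lower and 3 higher, of the peroxisomal members 8 lower and 3 higher, and of the others only Acsl1 was called, higher. Under library size scaling the median of all genes was 0.28 in place of 0.04, 12 members were higher and 7 lower, and the split of all genes was 5690 higher to 1213 lower in place of 2431 to 2411. Under that scaling Cpt1a (-0.13), Hadh (-0.06), Decr1 (-0.16), Hsd17b4 (-0.04), Acadm (-0.37), Etfa (-0.15), Etfdh (-0.23), Acox2 (-0.23) and Ehhadh (-0.57) were no longer called.

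Acads, Acadl and Acadm stood lower in ARLmon. Acads held 201, 186, 189, 161 and 219 CPM in ARLmon testosterone libraries, against 326 to 348 CPM in wild type testosterone libraries (-0.83 ± 0.11, adjusted p = 1.01e-05 in edgeR). Acadl held 333, 290, 302, 353 and 283 CPM in ARLmon, against 401 to 520 CPM in wild type (-0.59 ± 0.09, adjusted p = 4.73e-05 in edgeR). Neither gene's groups overlapped. Acadm differed by -0.61 ± 0.15 (adjusted p = 0.00464 in edgeR), and 1 ARLmon library, GC078615, reached 942 CPM, inside the wild type range of 808 to 1178. Etfa held 360, 328, 339, 366 and 355 CPM in ARLmon, against 431 to 488 CPM in wild type (-0.39 ± 0.07, adjusted p = 0.00018 in edgeR), and Etfdh, its partner in the inner membrane, differed by -0.47 ± 0.11 (adjusted p = 0.00205). Cpt1a (-0.37, adjusted p = 0.00748), Hadh (-0.30, adjusted p = 0.0182) and Decr1 (-0.41, adjusted p = 0.00716) were lower as well in edgeR.

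Acaa2 and both subunits of the trifunctional protein were higher in ARLmon. Acaa2 held 432, 341, 393, 289 and 433 CPM in ARLmon testosterone libraries, against 147 to 210 CPM in wild type, 2.12-fold higher (1.08 ± 0.14, adjusted p = 2.84e-06 in edgeR). Hadha averaged 299 ± 12.6 CPM in ARLmon and 215 ± 13.9 CPM in wild type (0.47 ± 0.10, adjusted p = 0.001), and Hadhb 113 ± 14.8 CPM in ARLmon and 82.6 ± 6.00 CPM in wild type (0.45 ± 0.10, adjusted p = 0.00169 in edgeR). The calls of Acads, Acadl, Hadha, Hadhb and Acaa2 kept their directions under library size scaling. The hydratase Echs1, between these steps, did not differ detectably (-0.03, interval -0.20 to 0.14), though its sign was positive under library size scaling (0.22, adjusted p = 0.0149).

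The largest differences were those of peroxisomal genes. Crot was 4.18-fold lower in ARLmon, at 186, 169, 202, 256 and 185 CPM, against 560 to 1174.6 CPM in wild type testosterone libraries (-2.06 ± 0.18, adjusted p = 1.34e-08 in edgeR). Acox3 was 3.06-fold lower, at 131 to 158 CPM in ARLmon and 393 to 469 CPM in wild type (-1.61 ± 0.09, adjusted p = 1.6e-11). Slc27a2 held 2834.8, 2295.6, 2249, 3227.3 and 2318.4 CPM in ARLmon, against 4811.8 to 6202.1 CPM in wild type (-1.06 ± 0.14, adjusted p = 4.1e-06 in edgeR). No library of these 3 genes overlapped between the genotypes. Eci2 held 106, 79.1, 79.5, 77.6 and 82.2 CPM in ARLmon, against 123 to 143 CPM in wild type (-0.67 ± 0.13, adjusted p = 0.00048), and Pex11a held 56.4, 47.2, 52.6, 57.6 and 54 CPM, against 72.4 to 97.7 CPM in wild type (-0.64 ± 0.09, adjusted p = 2.15e-05 in edgeR). Ehhadh (-0.82, adjusted p = 0.0102), Acox2 (-0.47, adjusted p = 0.0293) and Hsd17b4 (-0.28, adjusted p = 0.0115) were lower in edgeR. Acot3 was 3.66-fold higher in ARLmon, at 44 to 58 CPM against 10.4 to 16 CPM in wild type (1.87 ± 0.17, adjusted p = 3.5e-08 in edgeR). Acaa1b (0.71, adjusted p = 0.0065) and Decr2 (0.24, adjusted p = 0.0344) were higher. Decr2 lost its call without GC078607, GC078608, GC078609, GC078611, GC078612, GC078615 or GC078616, with the smallest difference, 0.21 (adjusted p = 0.0874), without GC078609. Acox2 lost its call without GC078610, GC078611, GC078612, GC078613 or GC078616, with the smallest difference, -0.39 (adjusted p = 0.0925), without GC078611. Hadh lost its call without GC078610 (-0.25, adjusted p = 0.0655).

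Acsl1 held 392, 478, 572, 504 and 447 CPM in ARLmon testosterone libraries, against 183 to 303 CPM in wild type (1.14 ± 0.16, adjusted p = 1.6e-05 in edgeR). Pdk4 was at 42.6 to 65.4 CPM in ARLmon and 23.7 to 37.5 CPM in wild type, without overlap, but missed the threshold (0.73 ± 0.31, adjusted p = 0.0814). Ppara gave -0.18 and Ppargc1a 0.27, and neither passed. Beside these differences, all 5 podocyte markers, all 4 distal convoluted tubule markers, 5 of 9 collecting duct markers, 4 of 6 endothelial markers, 3 of 8 fibroblast and mural markers, 3 of 7 tested immune markers and 1 of 7 adipocyte markers were higher in ARLmon, and 3 of 5 straight proximal tubule markers were lower and 1 higher. Of 5 thick ascending limb markers 2 were higher, and of 8 general proximal tubule markers 1 was lower.

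**Figure D4:**
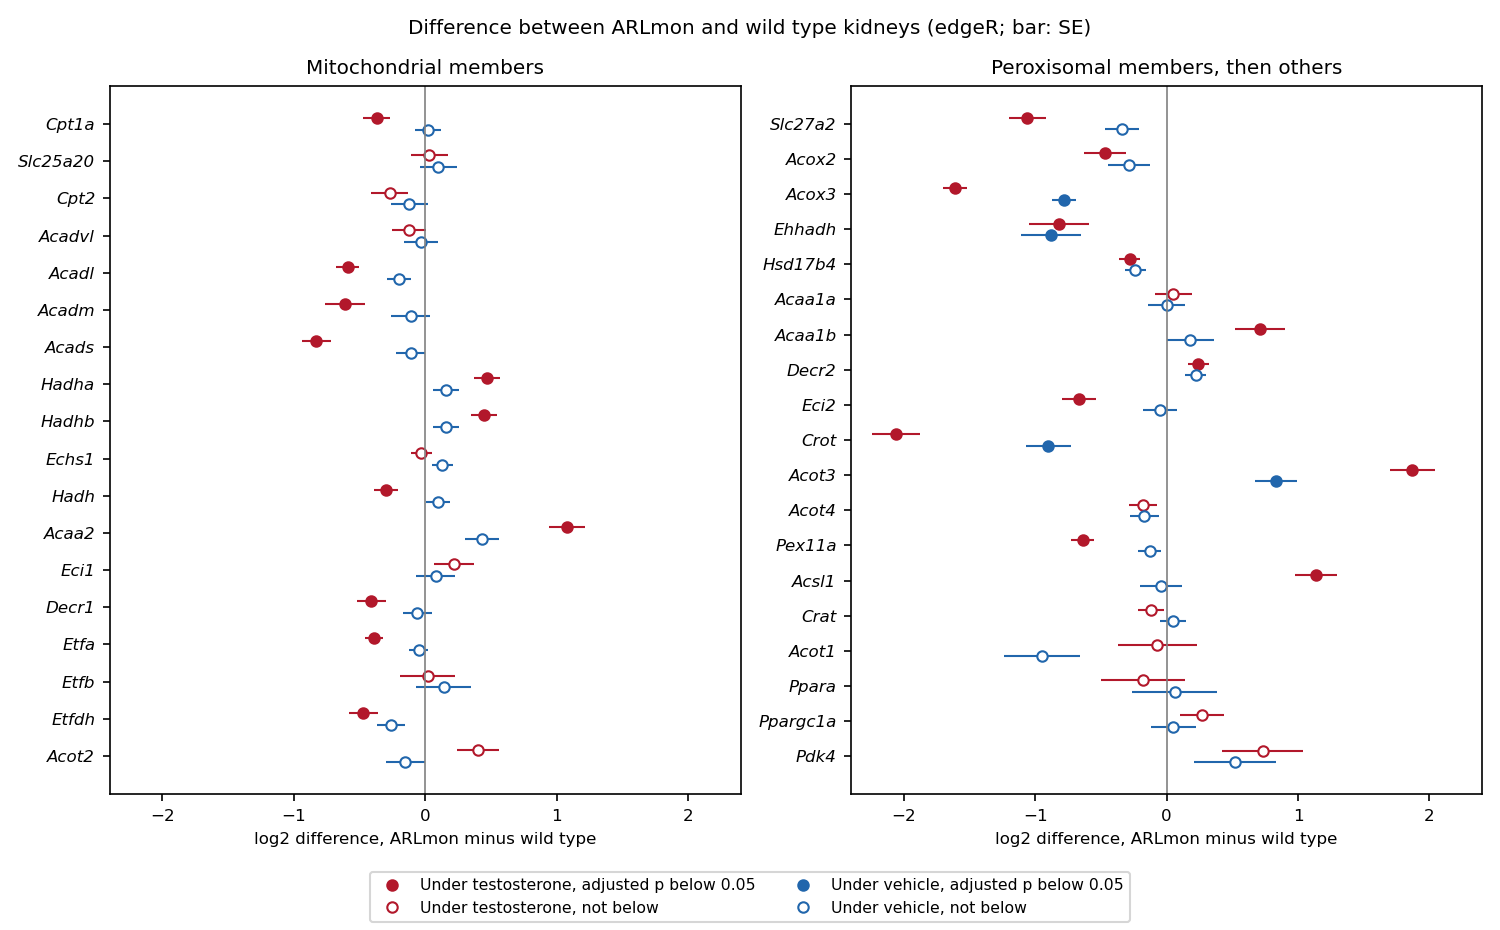
Log2 difference between ARLmon and wild type kidneys (horizontal axis; points, bars ± SE) of all 37 members under testosterone (red) and under vehicle (blue), filled where the adjusted p was below 0.05. Under testosterone the differences run from -2.06 (Crot) to 1.87 (Acot3), and Acox3, Ehhadh, Crot and Acot3 are filled under vehicle as well.

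ARLmon kidneys with testosterone were also set against wild type kidneys with vehicle, which share libraries with the comparisons above. Here 2 of 37 members passed, 1 higher and 1 lower, where 3.03% of all genes did, 1.25% higher and 1.78% lower. These 2 were also the members without overlap between the groups, where 3.9% of all genes were, 1.81% higher and 2.1% lower. Acox3 was lower, at 131 to 158 CPM in ARLmon testosterone and 200 to 262 CPM in wild type vehicle libraries (-0.63 ± 0.09, adjusted p = 0.000133 in edgeR). Acot3 was higher, at 44 to 58 CPM and 20.2 to 43.6 CPM (0.67 ± 0.16, adjusted p = 0.0226), and lost its call without GC078605 (0.59, adjusted p = 0.0738), GC078606 (0.55, adjusted p = 0.0501) or GC078616 (0.60, adjusted p = 0.0703). Acot1 came nearest among the others, with the largest change (-1.07, adjusted p = 0.0517), and passed in 10 of 31 other settings, while without GC078606 it was at -0.59 (adjusted p = 0.157). Crot gave -0.61 (adjusted p = 0.0587) and Ehhadh -0.70 (adjusted p = 0.116). The number of members that passed was 6 without GC078604, 4 without GC078611 or GC078615, and 1 without GC078605, GC078606 or GC078616.

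Genes around the 37 were counted in 6 lists, and no list was tested as a set. Over all tested genes, 9.36% were higher and 6.36% lower with testosterone in wild type. Under testosterone, 15.6% of all genes were higher and 15.5% lower in ARLmon. With vehicle, 1.99% of all genes were higher and 2.38% lower in ARLmon. Of 25 tested peroxisomal lipid enzymes and transporters outside the set, 12 rose and 1 fell with testosterone in wild type. They were led by Amacr, the racemase of branched chains and bile acid intermediates (2.00 ± 0.11, adjusted p = 3.38e-11), and Agps, the alkyl-DHAP synthase of ether lipids (2.86 ± 0.19, adjusted p = 7.16e-10 in edgeR), and the gene that fell was Hacl1, a lyase of α-oxidation (-1.27 ± 0.11, adjusted p = 1.64e-08). The list's median was 0.33, beside -0.03 over all genes, and under library size scaling, with a median of 0.18, 11 were higher and 5 lower. Under testosterone 15 of the 25 were lower and 2 higher in ARLmon, with -2.61 for Amacr, -3.23 for Agps and 1.78 for Hacl1, against 13 lower and 4 higher under library size scaling. With vehicle 4 of the 25 were already lower and 1 higher in ARLmon, with -0.57 for Amacr, -0.77 for Agps and 0.46 for Hacl1. Of 15 peroxins, the proteins that build peroxisomes, 5 rose and 0 fell in wild type, among them Pex2 (0.49), Pex19 (0.40) and Pex3 (0.47), and 10 were lower and 0 higher in ARLmon under testosterone. Under library size scaling the peroxins gave 3 higher and 1 lower in wild type (Pex3 at 0.32, adjusted p = 0.0567), and 2 lower and 1 higher in ARLmon. With vehicle and TMM factors 0 peroxins were called between the genotypes.

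Of 12 further acyl-CoA dehydrogenases and ketone body enzymes, 5 rose and 1 fell in wild type (5 higher and 2 lower under library size scaling). Acad9, needed for complex I assembly, changed by 1.11 ± 0.11 (adjusted p = 2.27e-07), the mitochondrial thiolase Acat1 by 0.95 ± 0.10 (adjusted p = 5.96e-07) and the hydroxybutyrate dehydrogenase Bdh1 by 1.11 ± 0.20 (adjusted p = 0.000485 in edgeR). Under testosterone 8 of the 12 were lower in ARLmon and 0 higher, against 5 lower and 2 higher under library size scaling. With vehicle and TMM factors 0 of the 12 were called between the genotypes. Of 20 genes of fatty acid uptake, activation and carnitine supply, 2 rose and 3 fell in wild type (1 higher and 5 lower under library size scaling). Of all genes, 9.36% were higher and 6.36% lower in wild type. The fatty acid translocase Cd36 rose (2.37 ± 0.25, adjusted p = 7.27e-07), and the transporter Slc27a1 (-0.90 ± 0.15, adjusted p = 0.000199) and the binding protein Fabp1 (-2.21 ± 0.45, adjusted p = 0.00156 in edgeR) fell. Under testosterone 4 were lower in ARLmon, Cd36 by -3.59, and 5 higher, Fabp1 by 3.75, and under library size scaling 4 were lower and 11 higher. With vehicle 2 were already lower in ARLmon, Cd36 by -1.66, and 1 higher, Fabp1 by 2.34. In the test of the 2 responses 1 gene of this list passed, Cd36 (-1.94, adjusted p = 0.00126 in edgeR).

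Of 13 tested PPARα targets outside oxidation, 1 rose and 5 fell in wild type (1 higher and 7 lower under library size scaling), with a median of -0.40, beside -0.03 over all genes. The ω-hydroxylase Cyp4a12a rose (3.72 ± 0.27, adjusted p = 2.24e-09), and the related Cyp4a10 (-1.72 ± 0.30, adjusted p = 0.000314) and the pantetheinase Vnn1 (-0.71 ± 0.14, adjusted p = 0.00116 in edgeR) fell. Under testosterone 5 of them were higher and 2 lower in ARLmon, or 6 and 1 under library size scaling. With vehicle 1 was higher and 2 lower in ARLmon, Cyp4a12a by -3.18. Of 24 nuclear receptors, coregulators and pyruvate dehydrogenase kinases, 2 rose (Pdk3, 0.97, and Lpin1, 0.61) and 1 fell (Rxrg, -2.14) in wild type, against 2 higher and 4 lower under library size scaling. With TMM factors the wild type counts of this list were near the shares over all genes (9.36% higher, 6.36% lower). In ARLmon under testosterone 6 of the 24 were lower and 3 higher, where 15.5% of all genes were lower and 15.6% higher. This split turned to 2 lower and 9 higher under library size scaling. With vehicle 1 of the 24 was higher and 1 lower in ARLmon, and each count fell to 0 in some fits with a library left out. In the ARLmon response 0 genes of the 6 lists were called. With the within-group axis as a covariate 8 were, of which 3 were peroxisomal enzymes or transporters, 2 belonged to uptake and activation, 2 to the regulators and 1 to the PPARα targets. As that axis comes from the spread of the same libraries, these calls are too lenient to count as responses.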

How the data were processed

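Whole kidney RNA was measured in 20 libraries. Per the labels' protocols, mRNA libraries were made with Illumina's TruSeq Stranded kit and run on a HiSeq4000. The tools named in the submitters' processing notes are HISAT2 (no version), HTSeq 2.7.14, SAMtools 1.5, FastQC 0.11.7 and DESeq2, with the build mm10. The annotation and the strand setting of the counting are not given in the sources used here. The authors deposited raw counts per gene in 4 tables, each for a pair of groups. They also deposited log2 values of 20550 genes, and their normalization is not given in the file headers. Count tables held equal values for shared libraries and were joined. The join set 12045 values in 1713 genes to 0 where a table lacked the gene, none of them in the 37 members. Library codes in the column names were matched to groups through the header of the deposited log2 values, and 20 of 20 columns were assigned.

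The main test was edgeR's quasi-likelihood F test (version 4.0.16, R 4.3.3) with TMM factors, the filterByExpr filter and a mean per group, which left 16 residual degrees of freedom. Genes were called at an adjusted p (Benjamini-Hochberg, over all tested genes) below 0.05. SE was taken as the absolute log2 change divided by √F, and intervals are 95%. CPM use TMM factors, and levels per kb use exonic length in GENCODE M21. Shared sequence was searched with windows of 50 bases. Other settings were RLE factors, scaling by library size alone, testing without a filter or with at least 1 CPM in 5 libraries, and DESeq2 1.42.0. Limma 3.58.1 was run as voom and on the deposited log2 values. Further fits dropped the 10 genes with most reads, used just the 10 libraries of each pair, dropped the 2 libraries farthest along the first axis of variation within groups, took that axis as a covariate, or left out each library in turn. These settings were applied to the pathway lists after their values were seen. The test was checked on simulated counts. Figures were drawn with matplotlib 3.10.9.

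The members, the pathway and marker lists and the tests were chosen with earlier results of these data known. Every member is accounted for. Where more than 15 were called, those with the 15 smallest p were to be named, and the further called members named were picked after their values were seen, for their place in the pathway. The 12 members with the smallest p over the comparisons have values in every library, and of each list up to 3 called genes are named, with genes that went against the list. Results for some genes are not reported here.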

Additional observations from a re-analysis of the deposited data

Results flagged for a closer look

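In 10 of the 148 sets of 5 libraries (37 members in 4 groups) the highest or lowest library lay apart from the others by Dixon's 95% criterion, where chance alone gives about 1 in 20. In ARLmon testosterone, library GC078615 held 942 CPM of Acadm (544 to 631 in the others) and 748 CPM of Ehhadh (359 to 471), and library GC078612 held 106 CPM of Eci2 (77.6 to 82.2) and 48.2 CPM of Acot1 (29.4 to 34.8). In ARLmon vehicle, GC078618 held 329 CPM of Echs1 (259 to 270) and GC078620 47.1 CPM of Pex11a (55.8 to 58.7). In wild type testosterone, GC078611 held 303 CPM of Acsl1 (183 to 203) and 60.6 CPM of Acot1 (26.5 to 34.2). In wild type vehicle, GC078606 held 126 CPM of Hadhb (94.8 to 104) and 160 CPM of Acot1 (41 to 67.3). The same library had 435 CPM over the adipocyte markers, against 85.4 to 164 CPM in the others of its group, and the fewest reads of its group. GC078621 (ARLmon vehicle) had 555 CPM over these markers and 36.1 CPM of Acot1.

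The response to testosterone differed between the genotypes, in edgeR's test of the difference itself (ARLmon minus wild type, log2), for Crot (-1.17), Acox3 (-0.84), Slc27a2 (-0.72), Acads (-0.71), Pex11a (-0.52), Etfa (-0.34), Acaa2 (0.66), Acot3 (1.04) and Acsl1 (1.19).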

How the results depend on the processing

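The following gives members called, then all genes called. The within-group axis was computed from the spread of these same libraries. As a covariate it lowers that spread by construction, so its higher counts are no added evidence. With the within-group axis as a covariate, testosterone gave 4878 genes in wild type and 2 members and 1104 genes in ARLmon, the genotypes differed in 9 members and 2503 genes with vehicle, ARLmon testosterone differed from wild type vehicle in 7 members and 1735 genes, and the responses differed in 14 members and 1986 genes. The libraries of a pair alone gave 330 genes between the genotypes with vehicle, and 1 member and 255 genes for ARLmon testosterone against wild type vehicle, where DESeq2 gave 6 and 751 and the fit without the 2 farthest libraries 6 members. Limma on the deposited log2 values called 7445 genes between the genotypes under testosterone. No filter left 5 members in the test of the responses. Leaving out 1 library gave 15 to 19 members and 1753 to 2644 genes in wild type, 0 and 0 in ARLmon, 3 to 7 and 413 to 1211 between the genotypes with vehicle, 21 to 24 and 3947 to 5261 under testosterone, 1 to 6 and 339 to 571 for ARLmon testosterone against wild type vehicle, and 5 to 10 and 579 to 967 for the responses. Among member results called in at least 1 setting, the sign turned for 2, neither of them called with TMM factors and all libraries, both under testosterone between the genotypes. Echs1 was at 0.22 under library size scaling, 0.20 on the deposited log2 values and -0.06 to 0 with single libraries left out (0 without GC078607). Acaa1a was at -0.01 to 0.13 with single libraries left out (-0.01 without GC078612 or GC078616). It reached 0.47 over all settings, and 1 setting called it higher in ARLmon. The cause of these shifts was not tested. No paired analysis was possible because the columns carry library codes and no replicate number of the labels. Depth ran from 8342000 to 38101526 reads, and every member held at least 88 reads in each library.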
